A study of Mus musculus with 2 samples.

Results

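The replication-dependent histone genes were read as promoters in the frontal cortex of young mice, by the DNase I accessibility of their start sites. They were taken as the protein-coding genes of the GENCODE M21 annotation (mouse genome build mm10) whose symbol begins with Hist1h, Hist2h, Hist3h or Hist4. There were 67 of them among 21911 protein-coding genes outside the mitochondrial chromosome. By the type of histone they encode, 6 were H1, 18 H2A, 18 H2B, 12 H3 and 13 H4. The Hist1 cluster on chromosome 13 held 54, in 2 stretches of 23 and 31 genes parted by over 500 kb. The Hist2 cluster on chromosome 3 held 10, the Hist3 cluster on chromosome 11 held 2, and Hist4h4 stood alone on chromosome 6.

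H2A, H2B, H3 and H4 form the core around which DNA is wound in a nucleosome, and linker histone H1 binds where the DNA enters and leaves it. Replication-dependent histone genes lack introns, are clustered, and supply histones for newly copied DNA during S phase, under the coactivator NPAT. Their messages end in a stem-loop that is bound by SLBP in place of a poly(A) tail, and most H2A and H2B genes lie head to head and share a promoter region. Neurons of the postnatal cortex have left the cell cycle and are known to draw on replication-independent histone variants such as H3.3, whereas glial precursors still divide at this age.

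The frontal cortex came from B6CASTF1/J females (F1 offspring of C57BL/6 and CAST parents) aged 14 days, as 2 DNase-seq libraries labelled biological replicates 1 and 2, with no treatment and no other group. Both carry the same donor label and a 3x mark whose meaning the labels do not give, so neither pooling of animals nor the spread between animals can be read from them. In DNase-seq the enzyme cuts open chromatin. A peak is a region with many cuts, and a footprint is a short run of bases with fewer cuts than its surroundings.

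The deposited peak lists held 93641 peaks in replicate 1 and 66196 in replicate 2, and the footprint lists 234094 and 154015 sites. Peak signals were whole multiples of a smallest step in each library, 0.0067 in replicate 1 and 0.00858 in replicate 2, and if a step is a read, replicate 1 was 1.28 times as deep. Promoters of the neuronal markers Snap25, Syt1, Rbfox3, Map2 and Tubb3 had a peak in both libraries in 5 of 5 cases. Those of the microglial markers had one in both in 0 of 3 cases and those of the endothelial markers in 0 of 2. The counts were 2 of 4 for excitatory neurons, 1 of 2 for interneurons, 2 of 3 for astrocytes, 2 of 4 for the oligodendrocyte lineage and 0 of 3 for markers of other tissues. The proliferation markers Mki67 (2.02 and 0.96 in replicates 1 and 2) and Top2a (6.87 and 5.87) both had a promoter peak. With whole tissue and 1 group, values from neurons, glia and any dividing cells cannot be told apart, and open chromatin is not a measure of transcription.

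A gene was given a promoter peak when a peak of the longer list met the 500 bp on either side of an annotated start, and its promoter strength was the highest signal among those peaks. Of the 67 histone genes, 58 had a promoter peak in replicate 1, 57 in replicate 2 and 57 in both, or 85.1%. Over all protein-coding genes the share was 63.8% in replicate 1, 59.2% in replicate 2 and 58.8% in both. A promoter footprint in both libraries was likewise found at 57 of the histone genes, against 56.7% of all genes. The strongest peaks of the 2 libraries overlapped at 57 of those 57 promoters. These shares describe 2 libraries and carry no test, since genes that share a promoter or a sequence are not replicates. The windows of 26 histone genes also held an annotated start of a gene outside the set. Those of 24 held a start of another histone gene. A peak or footprint in such a window was not assigned to 1 gene.

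Where a peak was present, its strength was ordinary for a promoter. The median over the histone genes was 2.33 in replicate 1 and 1.94 in replicate 2, beside 2.69 and 1.87 over all genes with a peak. Above the all-gene median lay 20 of 58 histone genes in replicate 1 and 30 of 57 in replicate 2. The ratio of replicate 1 to replicate 2 had a median of 1.23 at the histone genes and 1.55 over all genes. Stronger in replicate 1 were 49 of 57 histone genes, against 12319 of the 12894 protein-coding genes with a peak in both libraries. Among genes with a peak in both libraries, the median number of promoter footprints was 6 and 6 at the histone genes and 7 and 6 over all genes. Within 500 bp of the gene start, a median of 68.8% and 60.3% of bases lay in stretches that the authors list at a false discovery rate (FDR) under 0.05 for their cut rate, against 76.3% and 65.9% over all genes with a peak in both.

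**Figure D1:**
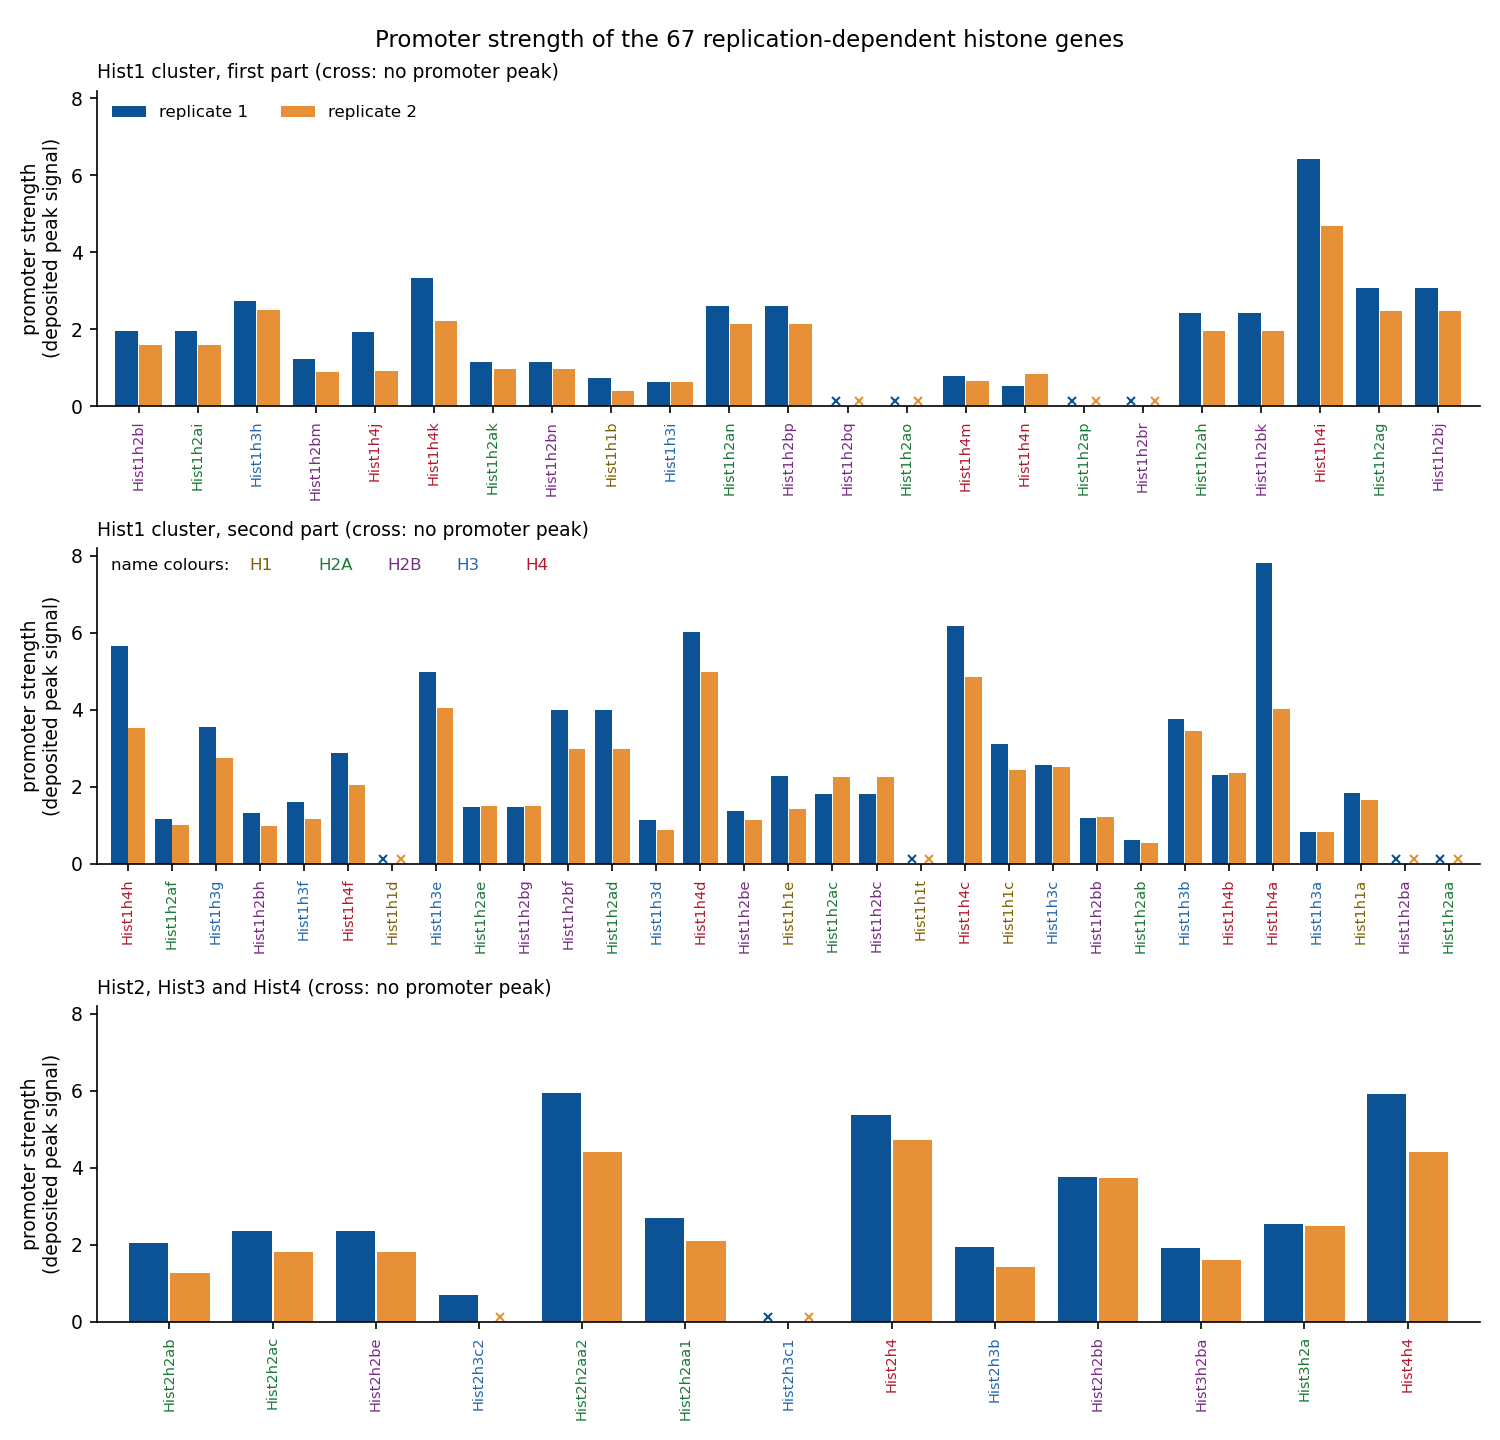
Promoter strength (y axis, the deposited peak signal) of all 67 genes in genome order, with replicate 1 in blue and replicate 2 in orange; crosses mark libraries with no promoter peak, and name colours give the histone type. The tallest bars belong to H4 genes, led by Hist1h4a at 7.81 and 4.01, and the crosses fall at 10 genes.

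All 4 clusters had open promoters. In the Hist1 cluster 46 of 54 genes had a peak in both libraries, with 19 of 23 in the first stretch and 27 of 31 in the other. The Hist2 cluster had 8 of 10, and both Hist3 genes and Hist4h4 had one. Median strength was 1.94 and 1.58 in the first Hist1 stretch, 2.27 and 2.26 in the other, 2.34 and 1.96 in Hist2, and 2.21 and 2.03 in Hist3. In the Hist1 stretches the strength ran from 0.53 to 7.81 in replicate 1, a range that holds the values of the other clusters. Member promoters held 12 of the 13 peaks of the Hist2 span in replicate 1 and 10 of 11 in replicate 2. In the first Hist1 stretch, which spans 329 kb, they held 35.6% and 36.2% of the peaks, and in the other, of 405 kb, 63.0% and 71.1%.

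Outside Hist1 the level differed widely from gene to gene. Hist4h4, the solitary H4 gene, reached 5.90 and 4.41. Hist2h2aa2 (H2A) reached 5.93 and 4.41, while its neighbour Hist2h2aa1 reached 2.69 and 2.10. The windows around those 2 starts shared 83.8% of 943 bases compared without gaps. Of the 32-base words within 500 bp of each start, 27.3% and 33.3% occur once in the C57BL/6J genome. The strongest peak was centred 34 bp before the start of Hist2h2aa2, and 226 and 236 bp before that of Hist2h2aa1. The part of read placement in the gap between these 2 genes was not tested. Hist2h4 (H4) had 5.37 and 4.72, and Hist2h2bb (H2B) had 3.74 and 3.73, the latter almost equal between libraries. Hist2h2ac (H2A) and Hist2h2be (H2B), which share a promoter, had 2.34 and 1.81. Hist2h3b (H3) had 1.95 and 1.42, and Hist2h2ab (H2A) 2.03 and 1.26. Of the Hist2 genes with a peak in both libraries, Hist2h2ab was the lowest by the mean and in replicate 2, and Hist2h3b in replicate 1. In the Hist3 cluster, Hist3h2a had 2.53 and 2.47 and Hist3h2ba 1.90 and 1.60. The window of Hist3h2a also held a start of Trim17, and that of Hist2h2ab a start of Bola1.

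By median the H4 genes had the strongest promoters of the 5 types, and all 13 had a peak in both libraries. Their median was 5.37 and 3.53. Among the 54 genes of the other types it was 1.95 and 1.74, over the 45 and 44 with a peak in replicates 1 and 2. Of the 5 strongest histone promoters by the mean, 4 were H4 genes of the Hist1 cluster. Hist1h4a had 7.81 and 4.01 (mean 5.91 ± 2.68, SD, n = 2), Hist1h4i 6.42 and 4.67, Hist1h4c 6.19 and 4.86, and Hist1h4d 6.01 and 4.99. The fifth was Hist2h2aa2, with a mean of 5.17 against 5.15 for Hist4h4. Hist1h4a lay above 97.0% of genes with a peak in replicate 1 and 92.3% in replicate 2, and Hist1h4d above 89.1% and 97.4%. The spread of Hist1h4a between the libraries was wider than the gaps between these 5 means, so their order is not resolved. Which genes make up the 5 also depends on the library: in replicate 2 Hist2h4 lay above Hist1h4i, and Hist1h4a below Hist2h2aa2 and Hist4h4. The group also had a low end. Hist1h4j had 1.92 and 0.91, and the copies Hist1h4m (0.78 and 0.66) and Hist1h4n (0.53 and 0.83) were the weakest H4 promoters. Only 3.81% and 2.89% of the 32-base words around the starts of these copies occur once in the genome. Without the copies the H4 median was 5.67 and 4.01, and the lowest values were 1.92 and 0.91. The H4 range therefore overlapped that of every other type.

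**Figure D2:**
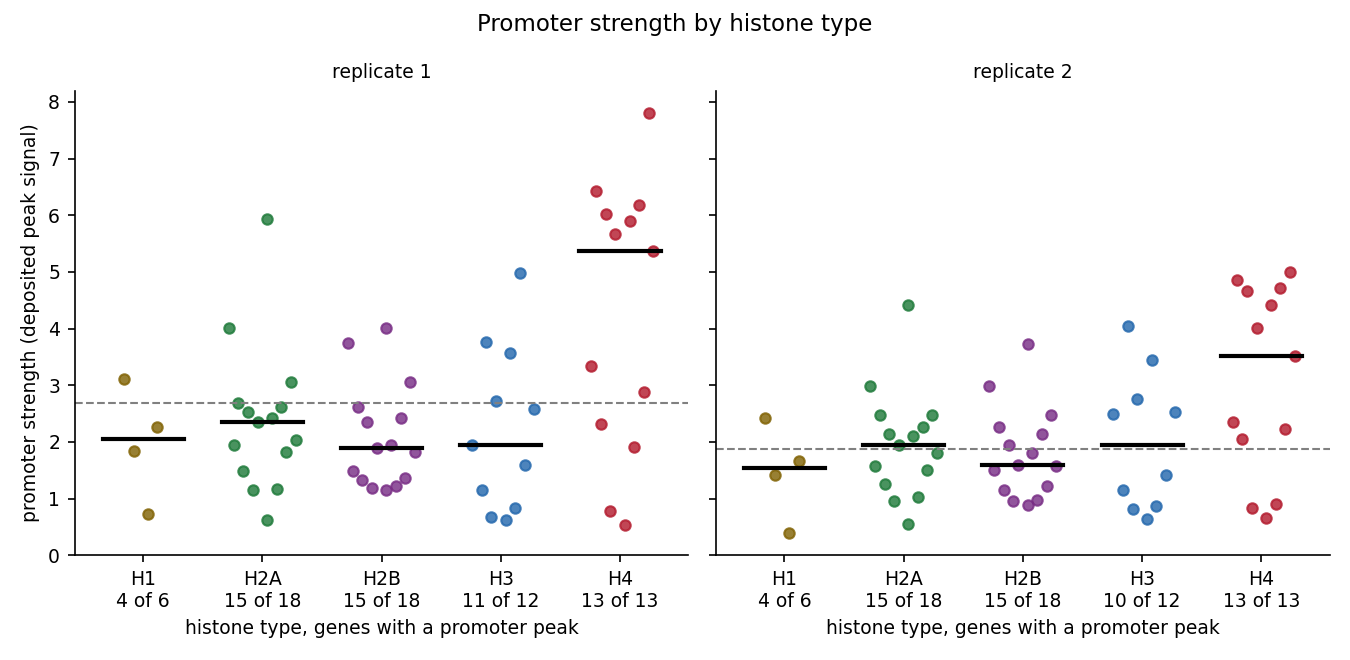
Promoter strength (y axis, deposited peak signal) of the genes with a promoter peak by histone type, 1 panel per replicate; black bars are medians and the dashed line is the median of all protein-coding genes with a peak. The H4 median, 5.37 and 3.53, stands above the dashed line in both panels, and single H4 genes reach down to 0.53 and 0.66.

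The bases just upstream of the start show where footprints fell at these promoters. The 120 bases before the RefSeq start are printed for the 4 strongest H4 promoters of Hist1 and for Hist4h4, 5' to 3' on the strand of each gene, with capitals at bases under a footprint in both libraries. Sequences are RefSeq's for the same build (GRCm38.p6), and the stretches are chr13:23761250-23761369, chr13:22041363-22041482, chr13:23698459-23698578 and chr6:136804432-136804551 on the minus strand and chr13:23581448-23581567 on the plus strand.
Hist1h4a: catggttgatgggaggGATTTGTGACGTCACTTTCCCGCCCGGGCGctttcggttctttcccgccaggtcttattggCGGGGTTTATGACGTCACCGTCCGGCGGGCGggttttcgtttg
Hist1h4i: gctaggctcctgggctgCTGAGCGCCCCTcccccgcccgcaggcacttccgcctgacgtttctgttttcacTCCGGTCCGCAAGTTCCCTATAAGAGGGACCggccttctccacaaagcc
Hist1h4c: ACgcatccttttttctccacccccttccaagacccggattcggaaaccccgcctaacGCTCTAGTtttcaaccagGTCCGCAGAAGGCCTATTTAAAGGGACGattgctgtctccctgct
Hist1h4d: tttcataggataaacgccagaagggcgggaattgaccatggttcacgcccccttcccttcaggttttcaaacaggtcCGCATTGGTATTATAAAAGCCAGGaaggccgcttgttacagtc
Hist4h4: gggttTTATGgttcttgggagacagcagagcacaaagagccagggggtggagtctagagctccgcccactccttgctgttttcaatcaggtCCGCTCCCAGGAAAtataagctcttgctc
All but the first of these 5 stretches hold GGTCCG, the core of the site known to be bound by HINFP at H4 promoters, partly or wholly in capitals. Hist1h4a lacks these letters in full, though its capitals hold GTCCG. Those capitals also cover 2 copies of TGACGTCA, the cyclic AMP response element (CRE), and matches on either strand to the E2F pattern TTTNNCGC and the GC box GGGCGG.

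Over the RefSeq promoter windows, which run from 250 bases before to 50 after the start and were given for 62 of the 67 genes, GGTCCG was found at 11 of 12 H4 genes. It was found at 0 of 6 H1, 0 of 18 H2A, 1 of 16 H2B and 1 of 10 H3 genes, and in 10.5% of the 21263 RefSeq windows of protein-coding genes. A footprint, widened by 5 bases on each side, held the match at 7 of those 11 H4 genes in replicate 1 and 8 in replicate 2, and at 7 in both. Hist1h4j, Hist1h4n and Hist1h4f had the letters without a footprint on them in either library. In windows that meet a peak, footprints held 61.5% of the histone genes' GGTCCG matches in each library, 8 of 13, against 27.9% and 24.9% of such matches over all promoters. The 11 matches at H4 genes were centred between -44 and 9 from the start, while those over all promoters were counted anywhere in the window. The part of position in this contrast was not tested. Footprints covered 48.8% and 49.2% of the last 50 bases before the start at H4 genes. The same share was 35.3% and 23.0% at H1, 15.7% and 15.8% at H2A, 16.3% and 14.0% at H2B, and 18.4% and 18.4% at H3 genes. Over the whole RefSeq window the share was also highest at H4 genes, 21.5% and 17.6%. The highest among the other types was 14.2% (H1) in replicate 1 and 12.2% (H2A) in replicate 2. These shares count genes without a promoter peak, which every type but H4 had. The part of peak presence and peak strength in this contrast was not tested. The enzyme's own preference for some sequences can shape footprints, and its part here was not tested.

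**Figure D3:**
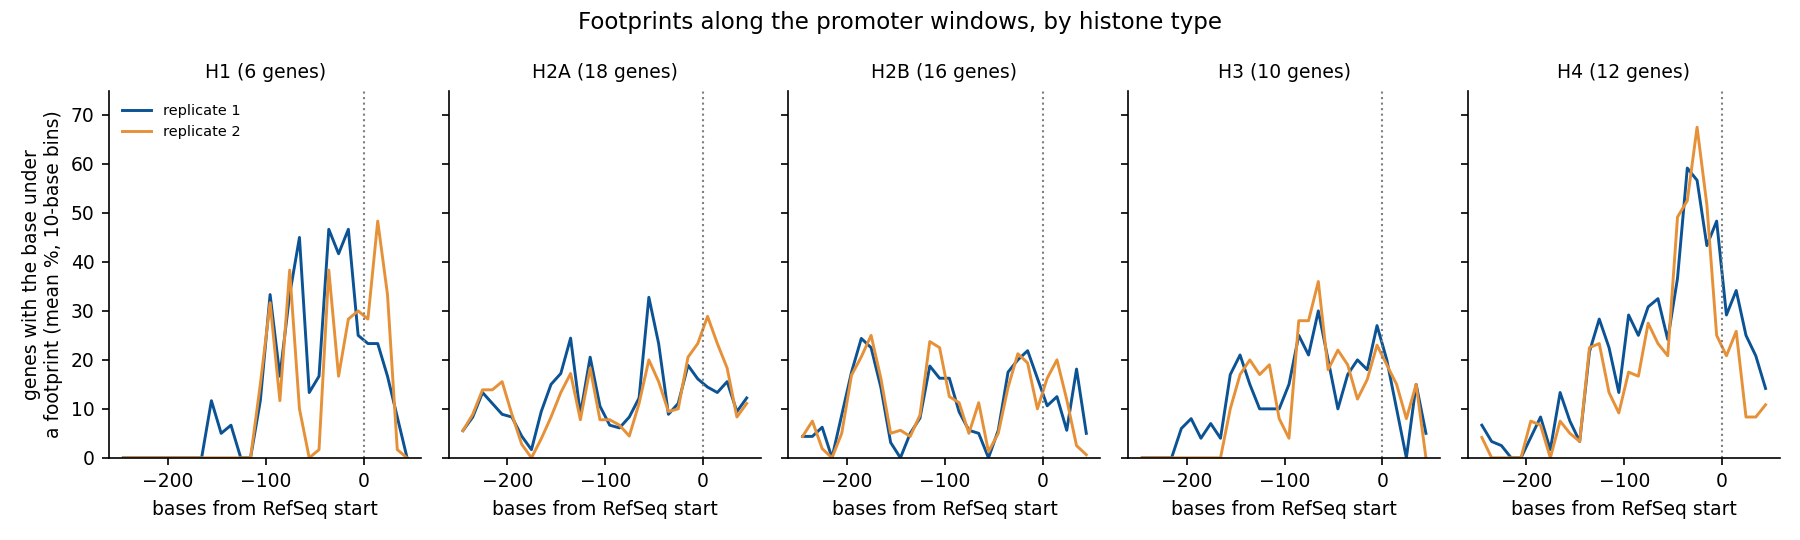
Share of genes with a base under a footprint (y axis, mean percent over 10-base bins) by distance from the RefSeq start (x axis, bases), for the 5 histone types and both replicates. The H4 panel has 1 main hump, in the last 50 bases before the start, in both libraries, while H2A and H2B show several lower humps. Genes without a promoter peak are counted, and every type but H4 has some.

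H3 promoters also varied in strength. Of 12 H3 genes, 11 had a peak in replicate 1 and 10 in replicate 2, all 10 in both libraries. The median was 1.95 over the first set and 1.95 over the second. The first set includes Hist2h3c2, at 0.68 in replicate 1 and without a peak in replicate 2. Over the 10 genes in both, the ratio of replicate 1 to replicate 2 had a median of 1.16, and 9 were stronger in replicate 1. Hist1h3e was the strongest at 4.98 and 4.04, and Hist1h3i the weakest with a peak in both, at 0.62 and 0.63. The median moved to 2.68 with windows of 1000 bp and 2.53 with windows of 250 bp (mean of both libraries), so it should be read with that range. CCAAT, the box bound by NF-Y, was present in 10 of 10 H3 windows and in 38.2% of all promoter windows.

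H2A and H2B genes mostly came in pairs. Of 13 pairs with starts within 1000 bp and facing away from each other, 12 joined an H2A to an H2B gene and 1 joined Hist1h2bh (H2B) to Hist1h3f (H3). The starts of a pair lay 176 to 660 bp apart. In 10 of 13 pairs a peak was present in both libraries, and in 9 of these the partners shared a peak in each library. The exception was Hist1h2bh and Hist1h3f, the pair with the widest gap. The annotated start of Hist1h3f lies 433 bp before its start codon, and its strongest peak was centred 528 and 568 bp past that start. Whether that start is in use was not tested, so this pair rests on the annotation. A single peak spanned both starts at 1 pair in replicate 1 and 2 in replicate 2, so at most pairs the open stretch sat between or to one side of the starts.

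Shared promoters were of middling strength. The median over pairs with a peak was 2.14 and 1.87, beside 2.42 and 2.10 over the promoters of unpaired genes with a peak. Of 41 such unpaired promoters, 38 had a peak in replicate 1 and 37 in both libraries. The unpaired group held all 13 H4 genes. Unpaired H2A genes had medians of 2.28 and 1.68 (6 genes) and unpaired H2B genes 1.37 and 1.22 (5 genes), so unpaired genes of those types did not lie above the pairs in both libraries. The H1 genes, all unpaired, had 2.06 and 1.54, below the pairs in both. Unpaired H3 genes, with 2.26 and 2.49 over the 10 and 9 with a peak, lay above the pairs in both libraries. The strongest shared promoter was that of Hist1h2bf and Hist1h2ad, at 4.01 and 2.98. Next came Hist1h2ag and Hist1h2bj at 3.06 and 2.48, Hist1h2an and Hist1h2bp at 2.61 and 2.14, Hist1h2ah and Hist1h2bk at 2.42 and 1.94, and the Hist2h2ac and Hist2h2be promoter. These 5 pairs were taken by the mean, and both libraries gave them in the same order. In replicate 2, however, Hist1h2ac and Hist1h2bc lay above Hist1h2an and Hist1h2bp, so which pairs make up the 5 depends on the library. Hist1h2ac and Hist1h2bc, at 1.82 and 2.26, were stronger in replicate 2, with a ratio of 0.80, while Hist1h2bh and Hist1h3f had a ratio of 1.38. By the mean, the weakest H2B promoter was shared by Hist1h2bn and Hist1h2ak, at 1.15 and 0.95, close to that of Hist1h2bm, at 1.23 and 0.89, which was lower in replicate 2. In both libraries the weakest H2A promoter was that of the unpaired Hist1h2ab, at 0.62 and 0.55.

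The stretches between the RefSeq starts of the 2 strongest pairs are printed on the plus strand, with capitals at bases under a footprint in both libraries. They run from the base next to the start of the minus-strand gene (named first) to the base before the start of the other, at chr13:23574208-23574380 and chr13:22042950-22043197.
Hist1h2bf and Hist1h2ad: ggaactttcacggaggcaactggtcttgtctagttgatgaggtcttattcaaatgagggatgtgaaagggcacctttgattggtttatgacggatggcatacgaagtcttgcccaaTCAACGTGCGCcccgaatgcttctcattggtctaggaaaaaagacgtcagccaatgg
Hist1h2ag and Hist1h2bj: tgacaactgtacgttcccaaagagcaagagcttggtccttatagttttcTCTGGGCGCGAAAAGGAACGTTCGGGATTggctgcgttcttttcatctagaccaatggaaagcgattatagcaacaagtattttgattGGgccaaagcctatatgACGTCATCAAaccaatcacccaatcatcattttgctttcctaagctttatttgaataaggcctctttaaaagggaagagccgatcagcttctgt
In the first, 11 of 173 bases are in capitals, and in the other 41 of 248, although the first pair had the higher signal. The capitals of the Hist1h2ag and Hist1h2bj stretch cover a match to the E2F pattern TTTNNCGC and most of a CRE. CCAAT was found in 18 of 18 H2A and 16 of 16 H2B windows, with a median of 3 matches per window in each type. The octamer ATTTGCAT, the site of OCT1 at H2B promoters, was found in 7 of 16 H2B and 7 of 18 H2A windows and in 1.66% of all promoter windows. Because partners share bases, a match near 1 start is often counted for both genes. In windows with a peak, footprints held 1 of 10 octamers in each library, at Hist3h2a, beside 9.14% and 4.38% of octamers over all promoters.

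The H1 genes had a peak in both libraries in 4 of 6 cases, with a median of 2.06 and 1.54. Hist1h1c (H1.2), which is known to stay expressed in cells that have stopped dividing, was the strongest at 3.11 and 2.43. Hist1h1e (H1.4) had 2.27 and 1.42 and Hist1h1a (H1.1) 1.85 and 1.66. Hist1h1b (H1.5) was the weakest promoter with a peak in both libraries of all histone genes by its mean, at 0.73 and 0.39. Hist1h1t, the linker histone of spermatocytes, had no promoter peak and no footprint in either library. Hist1h1d (H1.3) had none at its annotated start, which lies 1828 bp before its start codon. Windows placed around the start codon instead held peaks of 1.87 and 1.38.

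The 160 bases before the RefSeq start of 3 H1 genes are printed 5' to 3' on the strand of each gene to compare promoters with and without a peak. Capitals mark AAACACA, the H1 box of these promoters, and the boxes CCAAT and, further down, TATAAA. The stretches are chr13:23738647-23738806 and chr13:23695651-23695810 on the plus strand and chr13:23622559-23622718 on the minus strand.
Hist1h1c: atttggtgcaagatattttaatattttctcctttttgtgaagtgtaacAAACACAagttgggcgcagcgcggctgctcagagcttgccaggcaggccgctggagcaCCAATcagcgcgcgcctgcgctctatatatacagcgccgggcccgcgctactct
Hist1h1e: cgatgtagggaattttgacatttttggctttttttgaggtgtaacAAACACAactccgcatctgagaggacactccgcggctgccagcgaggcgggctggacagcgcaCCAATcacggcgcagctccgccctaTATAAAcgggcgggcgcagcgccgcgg
Hist1h1t: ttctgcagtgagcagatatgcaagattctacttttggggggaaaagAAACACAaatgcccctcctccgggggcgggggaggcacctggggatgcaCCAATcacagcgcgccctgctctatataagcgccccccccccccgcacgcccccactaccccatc
Counted to its centre from the RefSeq start, the H1 box lay at -108.5 in Hist1h1c, -111.5 in Hist1h1e and -110.5 in Hist1h1t, and all 3 carry CCAAT between it and the start. The window of Hist1h1t, with no peak, thus held these letters at a like distance to those of the open promoters. The H1 box was found in 5 of 6 H1 windows and 6.15% of all promoter windows. Among the 62 windows a footprint held it at Hist1h1c alone, in replicate 1 and not in replicate 2. In windows with a peak that is 1 of 6 and 0 of 6 matches, beside 6.82% and 9.21% over all promoters.

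No peak in both libraries was found at 10 of the 67 genes. Known for testis are Hist1h1t and the divergent pair Hist1h2ba and Hist1h2aa, whose starts lie 306 bp apart. All 3 had no promoter peak and no footprint, and 100%, 82.4% and 95.1% of the 32-base words within 500 bp of their starts occur once in the C57BL/6J genome. Hist1h1d had 100% such words. The other 6 lie in repeated sequence. Hist1h2bq with Hist1h2ao, and Hist1h2ap with Hist1h2br, are 2 copies of 1 divergent pair, and 0% of their words were unique. Around the Hist1h2bq and Hist1h2br starts 999 of 999 bases were identical, and around Hist1h2ao and Hist1h2ap 971 of 971. Hist2h3c1 had no promoter peak, Hist2h3c2 had one of 0.68 in replicate 1 only, and 3.30% of the words of each were unique. A read from such sequence cannot be placed on 1 copy, and how the authors treated such reads is not given in the sources used here. Absence of a peak at these 6 therefore cannot be told apart from loss of reads.

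Few unique words did not always go with no peak. Hist1h4m and Hist1h4n, with 3.81% and 2.89% unique words and 997 of 1001 bases alike, had peaks in both libraries. Hist2h2aa2 had 27.3% unique words and one of the 5 strongest promoters by the mean. Among the 59 histone genes with at least 20% unique words, 55 had a peak in both libraries, or 93.2%, against 61.5% of the 20901 protein-coding genes that meet the same limit. Of the 8 below it, 2 had one, against 4.46% of 1010 genes. The median histone window had 63.6% unique words and the median window of all genes 100%. Its part in the strengths was not tested.

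**Figure D4:**
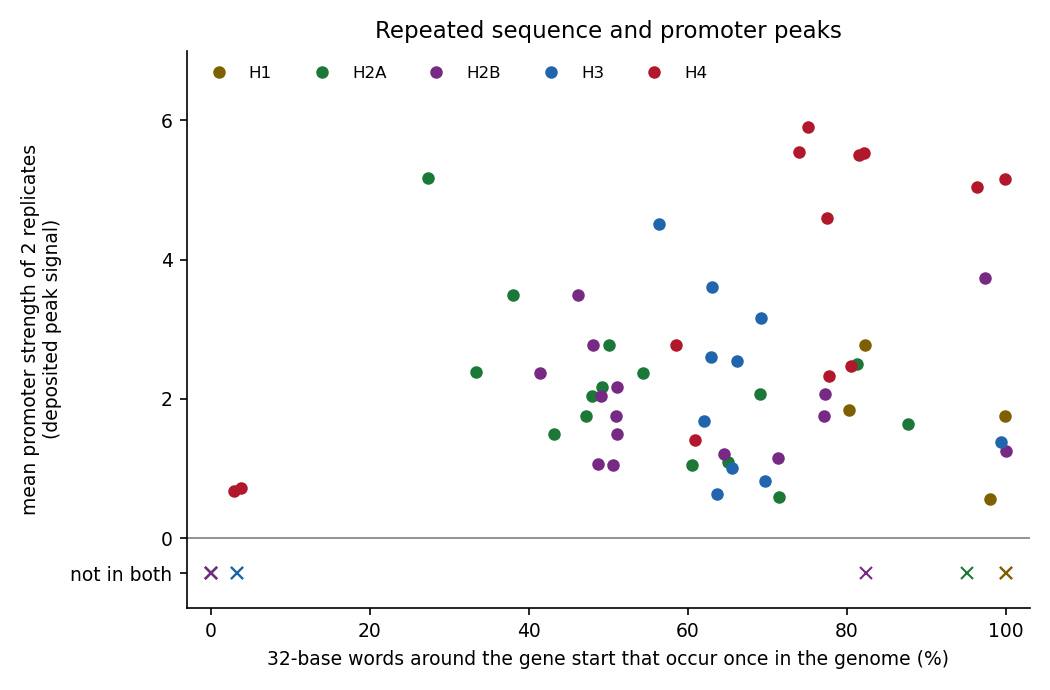
Mean promoter strength of the 2 replicates (y axis, deposited peak signal) against the share of unique 32-base words around the gene start (x axis, percent), coloured by histone type; crosses below the line are the 10 genes without a peak in both libraries, some drawn over each other. Of the crosses 6 lie under 4% and 4 above 82%, and the 2 H4 points under 4% are Hist1h4n and Hist1h4m.

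Other sequence features of the windows were tallied on both strands. TATAAA was present in 35 of 62 histone windows, or 56.5%, against 12.6% of all promoter windows, and CCAAT in 85.5% against 38.2%. TTTNNCGC, the E2F pattern, was present in 30.6% against 6.24%. It was found at 8 of 18 H2A and 8 of 16 H2B genes, with 2 of 12 H4, 1 of 6 H1 and 0 of 10 H3 genes. Most of the H2A and H2B genes with it are partners that share the same match, which counts for both, and 2 of those pairs are copies. Matches at distinct places numbered 21 over the 62 windows. Shared bases bear on the shares of the other patterns in the same way. GGGCGG, the GC box, was present in 38.7% against 46.2%, and CRE in 6.45% against 2.23%. CCAAT set the types apart, in 3 of 12 H4 windows and in every window of the other types. In windows with a peak, footprints held CCAAT matches at a like rate in histone genes (22.9% and 17.7%) and over all promoters (27.5% and 23.8%). TATAAA matches were under a footprint more often, 36.4% and 30.3%, against 16.9% and 13.9%. These are matches of letters, not measured binding.

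The 3' ends were read for the mark of the class. The 16-base stem-loop pattern, sought within 150 bases after the stop codon, was met without a mismatch by 61 genes and with at most 1 by 64. In the forms below, capitals mark bases that differ from the commonest form, which 41 genes carry.
Commonest form: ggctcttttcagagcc
Hist1h4c and 7 other H4 genes: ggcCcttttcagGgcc
Hist1h4a: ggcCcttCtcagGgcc
Hist1h4b and Hist1h4j: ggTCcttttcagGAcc
Hist2h2be best match: ggcGctCGCTGgCCcc
Hist1h4b and Hist1h4j had 2 mismatches to the pattern, and the capitals of their form lie opposite each other in the stem. Hist2h2be had 5, and no stem-loop was recognised there. Hist2h2be (record length 2620 bp) and Hist1h2bc (8710 bp) are known to give polyadenylated messages, and their promoters, each shared with an H2A gene, had ordinary strengths. The testis genes Hist1h1t, Hist1h2ba and Hist1h2aa all met the pattern. Hist1h2be has annotated starts 35168 bp before its start codon, with 1.37 and 1.15 there, and a window around the start codon held 1.27 and 1.00.

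Genes that act on or beside the histone genes were read in the same way. Promoter peaks were present in each library at 11 of 14 histone genes listed as replication-independent, with a median of 4.03 and 2.58. The stem-loop was not sought at these 14 genes. H2afv (8.59 and 5.46) and H2afx (7.67 and 4.48) led in both libraries. Next by the mean was H2afj (6.50 and 4.07), with H2afz slightly above it in replicate 1, at 6.53. The H3.3 genes H3f3a (4.03 and 2.58) and H3f3b (4.91 and 2.84) had a peak in both libraries. The 3 without any were the germ-line linker histones H1foo, H1fnt and Hils1. All 14 genes for factors of histone gene expression had one, with a median of 4.54 and 3.00. Casp8ap2, which works with NPAT at histone loci, had 7.51 and 4.50, Npat itself 6.99 and 3.94, and Cpsf3, the nuclease that cuts histone messages, 6.47 and 4.46. Hinfp had 5.59 and 3.44 and Slbp 4.45 and 3.08.

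A promoter peak in both libraries was also present at all 21 S phase genes, with a median of 4.20 and 2.31. The highest by the mean were Mcm5 (8.41 and 4.97) and Mcm4 (6.50 and 4.81), both part of the replicative helicase, and the topoisomerase gene Top2a, although in replicate 1 Ccna2 (7.41) and Ccne1 (7.09) lay above Mcm4 and Top2a. Thymidylate synthase, Tyms, had the lowest, 1.19 and 0.63. The median of the histone genes outside H4, 1.95 and 1.74, lay below the medians of these 3 lists in both libraries, and the H4 median lay above them. No test of these differences was made. Unique words were nearly complete in the 3 lists, with medians of 97.7%, 100% and 100%, against 62.5% at the histone genes outside H4 and 77.5% at H4 genes.

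**Figure D5:**
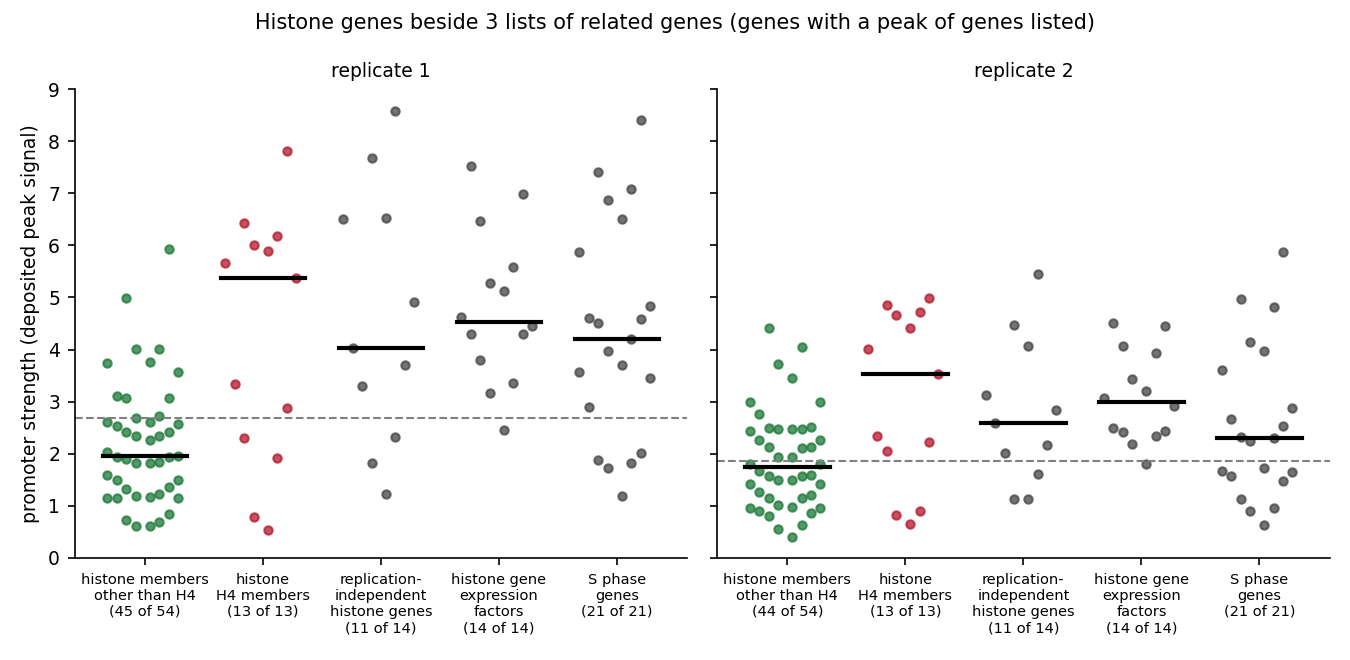
Promoter strength (y axis, deposited peak signal) of histone genes outside H4, H4 genes and 3 lists of related genes, 1 panel per replicate; points are genes with a promoter peak, black bars medians, the dashed line the median of all protein-coding genes with a peak, and labels give genes with a peak of genes listed. The H4 median of 5.37 and 3.53 lies above those of the lists, and the points of every column overlap.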

How the data were processed

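Per the labels, mouse frontal cortex gave 2 DNase-seq libraries aligned to mm10, and per the deposited notes peaks, footprints and FDR stretches came from each library's own alignments. The sources used here name no aligner, caller, threshold, read length or rule for reads with several placements. The authors' peak signal is read-depth normalized on a scale that is not stated. The deposited FDR cut rate, a p-value type measure, is under 0.05 in every stretch. The deposited footprint value is constant, so positions were used alone.

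Windows of 500 bp on either side of GENCODE M21 starts were crossed with peaks and footprints (at least 1 bp, numpy 2.4.6), as checked against bedtools in 2000 of 2000 simulated windows. Unique words of 32 bases were counted in C57BL/6J sequence only, although the mice also carry a CAST genome.

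Genes were named by rule: the 5 strongest, the highest and lowest of each cluster and type, all outside Hist1 or without a peak in both libraries, the strongest and most library-dependent pairs, 8 set genes, and the 3 strongest and all peakless genes of each list. Genes and lists were chosen with earlier results of these data known. RefSeq had no promoter entry for Hist1h3f, Hist1h2bc, Hist1h3a, Hist2h2be and Hist2h4.

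With 1 group no test was made, and replicates measure only the spread between 2 libraries of 1 donor label. Alternatives were the stricter peak list, windows of 250 and 1000 bp, other start sets, either library alone, pair distances of 500 and 2000 bp, summed strength and words of 24 bases. Start codon windows and the limit of 20% unique words were added after the data were seen.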

Additional observations from a re-analysis of the deposited data

How the results depend on the processing

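The count of histone genes with a promoter peak in both libraries was 57, and 52 with the stricter peak list, 56 and 57 with windows of 250 and 1000 bp, 57 with the gene record's end as the only start, and 58 with windows around the start codon. Over all genes the share fell from 58.8% to 52.4% with the stricter list, to 53.2% with the record's end and to 39.6% with start codon windows. From either library alone it was 57 to 58, and the median strength 1.94 to 2.33. All cluster and type counts were within 1.5 times their values under each alternative run. The median strength, 2.13 as the mean of both libraries, became 2.59 when the signals of all promoter peaks of a gene were summed, and that of all genes went from 2.28 to 3.00. The H3 median, 1.95, became 2.11 with the stricter list and with start codon windows, 2.53 with windows of 250 bp and 2.68 with 1000 bp. The unpaired promoters' median became 2.49 with 1000 bp. Divergent promoters with a peak rose from 10 to 18 when starts within 2000 bp counted as a pair, which admits more pairs. Start codon windows left 8 of the 14 factors of histone gene expression with a peak (the cause was not tested). With the stricter list, Hist1h4j, Hist1h1b, Hist1h2af, Hist1h2bh and Hist1h2ab had no peak in replicate 2. No paired analysis was possible because the series has 1 group. The weakest histone promoter peaks had 79 signal steps in replicate 1 and 46 in replicate 2, at different genes.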
